A study of Mus musculus with 6 samples.

Results

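The interferon-stimulated genes described here are 37 genes known to be switched on when interferons bind their receptors. They were picked by gene symbol. All 37 were rows of the deposited table of 54532 genes, and all 37 passed the filter on low counts that left 13377 genes for testing. They were followed in liver RNA of 6 male C57BL/6J mice, in which insulin resistance (IR) had been produced by a high-fat diet for 6 weeks from the age of 8 weeks. Every mouse was fasted for 16 h before an intraperitoneal injection, and its liver was taken 6 h after the injection. In the IR insulin group 3 mice were given insulin (0.75 units per kg), while the 3 mice of the IR vehicle group received bovine serum albumin (BSA), the vehicle. Both groups thus shared strain, diet and fasting, and no chow-fed mouse enters the comparison. Each library was made from whole liver at a single dose and time.

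Interferons are cytokines released when a cell detects foreign nucleic acid or when lymphocytes are activated. Type I interferons act through the receptor encoded by Ifnar1 and Ifnar2, whose kinases JAK1 and TYK2 activate transcription factors of the STAT family. A complex that contains STAT2 and IRF9 then binds the interferon-stimulated response element (ISRE) in the promoters of its targets. Interferon gamma acts through Ifngr1 and Ifngr2, JAK1 and JAK2, and targets promoters with the gamma-activated site (GAS). In liver, hepatocytes, Kupffer cells and endothelial cells can all respond, and the genes are best known for defence against viruses and intracellular parasites.

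RefSeq promoter windows (build GRCm38.p6, from 250 bases before to 50 bases after the start site) were found by symbol for 29 of the 37 genes. Both strands were searched for the ISRE core, here GAAA and GAAA with any 2 bases between them (TTTC and TTTC when read on the opposite strand), and for the GAS letters TTC and GAA with any 3 bases between them, which match on both strands at once. The ISRE core lay in a window of 18 of the 29 genes (62.1%), against 3.99% of 27025 genes with a window. The GAS letters lay in a window of 8 of the 29 (27.6%), against 9.55% of all genes. Per window, the ISRE core was in 19 of 34 windows of the 29 genes (55.9%) and in 3.44% of all 32851 windows.

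The 140 bases before the start site are printed for 7 genes, each of which holds a match there. They were chosen to show different arrangements of the motif, and Irf1 as an example of GAS letters with no ISRE core. Capitals mark every match to the ISRE core, or in Irf1 the GAS match, and sequences run from 5′ to 3′ on the strand of the gene.
Isg15, chr4:156200819-156200958, minus strand: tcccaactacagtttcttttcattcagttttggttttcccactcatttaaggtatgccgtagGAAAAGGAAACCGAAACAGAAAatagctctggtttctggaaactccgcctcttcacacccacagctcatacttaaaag
Ifit1, chr19:34640749-34640888, plus strand: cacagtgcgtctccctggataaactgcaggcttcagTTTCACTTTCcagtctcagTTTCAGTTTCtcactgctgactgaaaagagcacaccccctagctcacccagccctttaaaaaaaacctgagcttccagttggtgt
Ifit3, chr19:34583389-34583528, plus strand: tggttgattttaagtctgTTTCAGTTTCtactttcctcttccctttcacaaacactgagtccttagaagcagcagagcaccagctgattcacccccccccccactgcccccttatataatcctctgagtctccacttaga
Oas1a, chr5:120907526-120907665, minus strand: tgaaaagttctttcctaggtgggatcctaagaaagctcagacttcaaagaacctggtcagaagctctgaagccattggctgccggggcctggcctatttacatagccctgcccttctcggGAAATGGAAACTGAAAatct
Bst2, chr8:71537473-71537612, minus strand: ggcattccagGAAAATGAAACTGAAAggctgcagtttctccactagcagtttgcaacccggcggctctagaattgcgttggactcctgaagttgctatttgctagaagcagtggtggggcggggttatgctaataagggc
Irgm1, chr11:48871421-48871560, minus strand: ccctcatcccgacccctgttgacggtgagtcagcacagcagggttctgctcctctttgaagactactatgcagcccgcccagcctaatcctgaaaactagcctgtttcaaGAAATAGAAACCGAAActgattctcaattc
Irf1, chr11:53769874-53770013, plus strand: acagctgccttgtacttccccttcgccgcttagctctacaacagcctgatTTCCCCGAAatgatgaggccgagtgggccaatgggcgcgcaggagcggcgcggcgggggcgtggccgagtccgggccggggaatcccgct

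In Isg15, 3 matches overlapped in a single run that began 78 bases before the start site. Ifit1 held a pair of matches that began at −104 and −85. Ifit3 held its matches at −156 and −122, the first of which lies outside the stretch shown. In Oas1a the run began 20 bases before the start site, and its neighbour Oas1g had the same pair of matches, which began at −18. Bst2 carried overlapping matches from −130, and a GAS match from −136 shared letters with the first of them. Irgm1 held overlapping matches close to the start site, from −30, and its stretch lies inside the span of the GENCODE gene (48861968 to 48871683). The end of the Ifit1 stretch also lies inside its GENCODE gene, which starts at 34640871. Gbp2 held a match from −59. Irf1 had no ISRE core in either of its windows and a GAS match from −90. A match describes the letters of the window only and is not evidence that a factor was bound there.

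The libraries held 18449986 to 21827619 read counts. Expression is given as CPM, the count scaled to a common library size after TMM normalization, and the raw counts of the 37 genes ran from 14 to 27934 in a library. IR vehicle replicates 2 and 3 stood apart from the other 4 libraries over all genes. The Pearson correlation of log2 CPM between pairs of libraries ran from 0.893 to 0.961 for pairs that held either of them, and from 0.983 to 0.991 for the rest. In IR vehicle replicate 2 the deviation from the other libraries (the log2 level minus their median) moved with transcript GC content, with a Spearman's rho of −0.67 across all genes tested. Hepatocyte transcripts dominated every library, with Alb at 38255 to 138554 CPM.

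Per unit of transcript length, the genes spanned a wide range in these livers. Levels between genes were compared as TPM, in which each count is divided by the length of the longest annotated transcript before scaling. Iigp1, an effector GTPase of the vacuole defence system, was the most abundant at 567 ± 259 TPM (SD over the 6 livers). Ifi47 followed at 284 ± 197 TPM and Bst2 at 269 ± 104 TPM. These 2 did not differ beyond their spread. Gbp2 and Isg15 came next, at 135 ± 82.4 and 129.6 ± 78.8 TPM, which again overlapped. At the other end Oas3, Mx1 and Oas2 had 1.16 ± 0.598, 1.11 ± 0.426 and 0.899 ± 0.234 TPM. The GTPase family therefore held 3 of the 5 highest places, and the oligoadenylate synthetases held 3 of the 4 lowest.

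**Figure D1:**
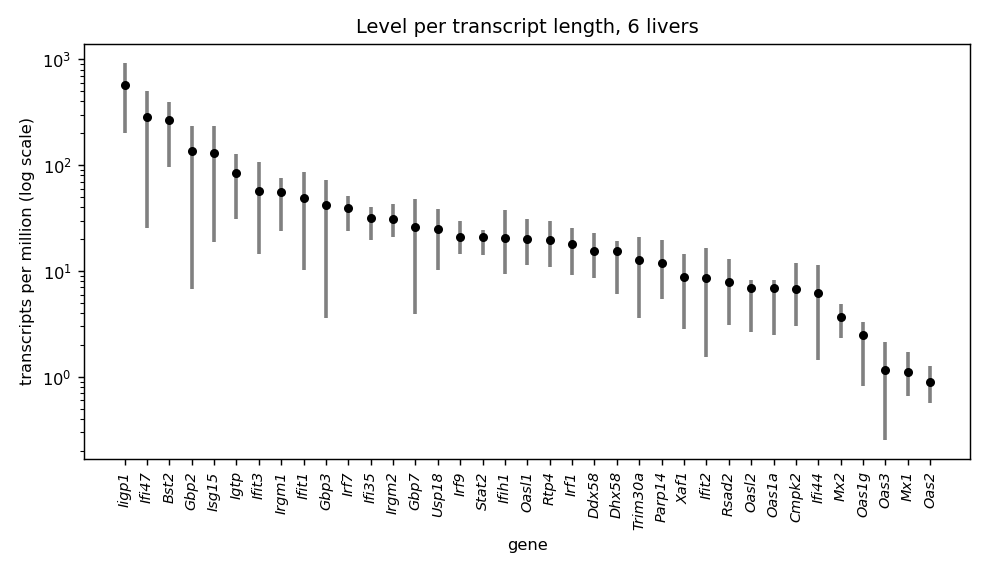
Level of each of the 37 genes per transcript length, in TPM on a log axis. Points are the mean of the 6 livers and grey lines run from the lowest to the highest liver. Iigp1 has the highest mean, at 567 TPM, and Oas2 the lowest, at 0.899 TPM.

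The comparison of IR insulin with IR vehicle asks which hepatic transcripts still answer insulin in insulin-resistant mice. For the interferon-stimulated genes it gave no call. In the quasi-likelihood test of edgeR, with Benjamini-Hochberg adjustment over 13377 genes, 0 of the 37 passed an adjusted p of 0.05, where 0% of all genes tested did. By the criteria of the study's methods (0.35 or more in either direction on the log2 scale, and an unadjusted p under 0.05) edgeR again called 0 of the 37, beside 2.86% of all genes tested. At an unadjusted p under 0.05 there were also 0 by edgeR, by DESeq2 and by limma voom. Of all genes tested 2.86%, 3.79% and 1.59% passed in these 3 tests. The adjusted p of the 37 genes in edgeR ran from 0.852 to 0.998.

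The point estimates fell on both sides of 0. With insulin 21 genes were higher and 16 lower. Their log2 fold changes ran from −0.58 to 0.66, with a median of 0.042 beside −0.017 over all genes tested. For 31 of the 37 the standard error (SE) was larger than the difference itself. The median SE was 0.47 for these genes and 0.34 over all genes tested, so differences of that size were not detectable with 3 mice in a group. Vehicle and insulin values were fully separated for 1 gene of the 37, Bst2, while they did not overlap for 12.3% of all genes tested (6.25% higher and 6.04% lower with insulin). All 3 insulin values lay within the range of the vehicle values for 18 of the 37, and for 38.4% of all genes tested.

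**Figure D2:**
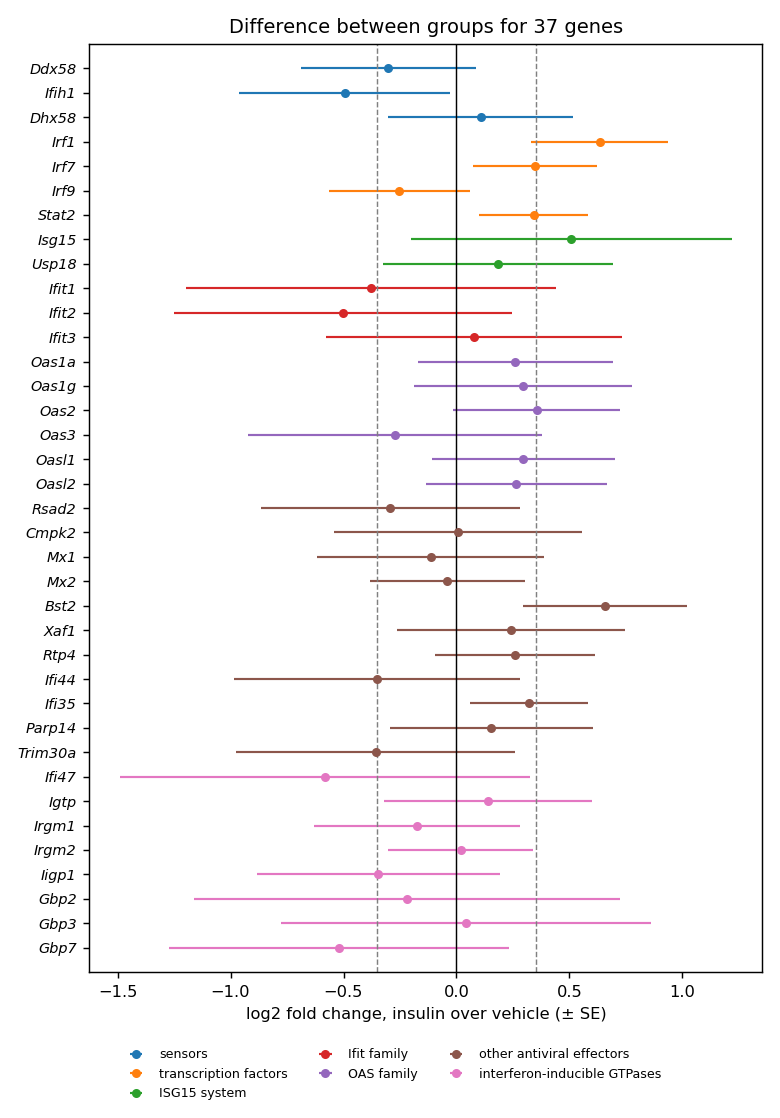
Log2 fold change of IR insulin over IR vehicle for the 37 genes, with bars of ± 1 SE from edgeR and colours for the roles. Dashed lines mark 0.35 in each direction; 21 points lie above 0 and 16 below, and no gene had an unadjusted p under 0.05.

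The direction of the group as a whole depended on single mice. Without IR vehicle replicate 3, 10 genes were higher and 27 lower with insulin, and the median log2 fold change was −0.26. When IR vehicle replicate 2 was left out, 35 were higher and 2 lower, with a median of 0.21. With IR insulin replicate 2 left out the split was again 10 higher and 27 lower, at a median of −0.27. Leaving out IR vehicle replicate 1, IR insulin replicate 1 or IR insulin replicate 3 gave medians of 0.29, 0.14 and 0.24. Over all genes tested the median stayed between −0.024 and 0.024 in these 6 fits.

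**Figure D3:**
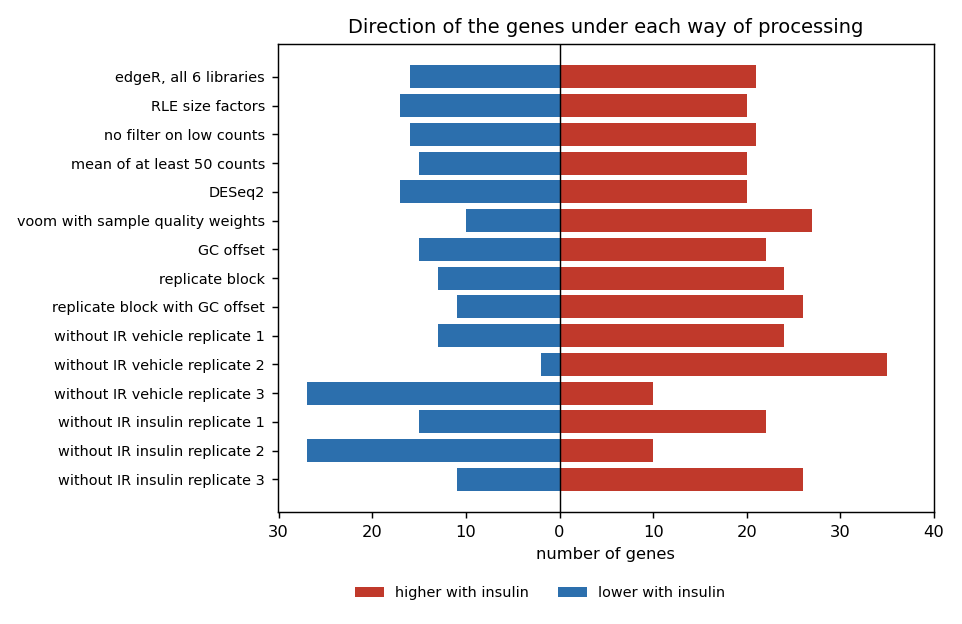
Number of the 37 genes (35 where a mean of 50 counts was required) whose log2 fold change was above 0 (red, to the right) or below 0 (blue, to the left) with all 6 libraries and under each of 14 other ways of processing. The split turns to 27 lower without IR vehicle replicate 3 or IR insulin replicate 2, and reaches 35 higher without IR vehicle replicate 2.

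Most of these genes shared a lowest vehicle mouse and a highest insulin mouse. IR vehicle replicate 3 had the lowest value of the 6 libraries for 28 of the 37 genes, where it was lowest for 23.8% of all genes tested. IR insulin replicate 2 was the highest insulin library for 32 of the 37, and for 30.5% of all genes tested. Within the vehicle group alone, IR vehicle replicate 3 was lowest for 32 of the 37 (34.5% of all genes tested). Summed over the 37 genes, expression was 3444, 4091 and 973 CPM in IR vehicle replicates 1, 2 and 3. It was 2157, 3490.2 and 1859 CPM in IR insulin replicates 1, 2 and 3. The vehicle livers thus held both the highest and the lowest sum, and the insulin livers lay between them. A few abundant genes weigh most in these sums: Iigp1 alone made up 1715 CPM of that in IR vehicle replicate 2. These counts describe 6 mice and were not tested.

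The median gene of the list differed 3.23-fold between the highest and lowest vehicle mouse and 1.86-fold between the insulin mice. Over all genes tested those medians were 2.02 and 1.28. In IR vehicle replicate 3 the genes were below the median of the other 5 libraries by 1.26 at the median on the log2 scale, and 36 of 37 were below it. All 37 were above it in IR insulin replicate 2, by a median of 0.61. In IR vehicle replicates 1 and 2 the median was 0.43 and 0.48, with 34 and 25 of the 37 above. By this measure, unlike the sum, IR insulin replicate 2 stood highest. The same median over all genes tested ran from −0.020 to 0.0068 over the 6 libraries. In whole liver, fewer cells that carry a transcript and less of it per cell cannot be told apart.

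**Figure D4:**
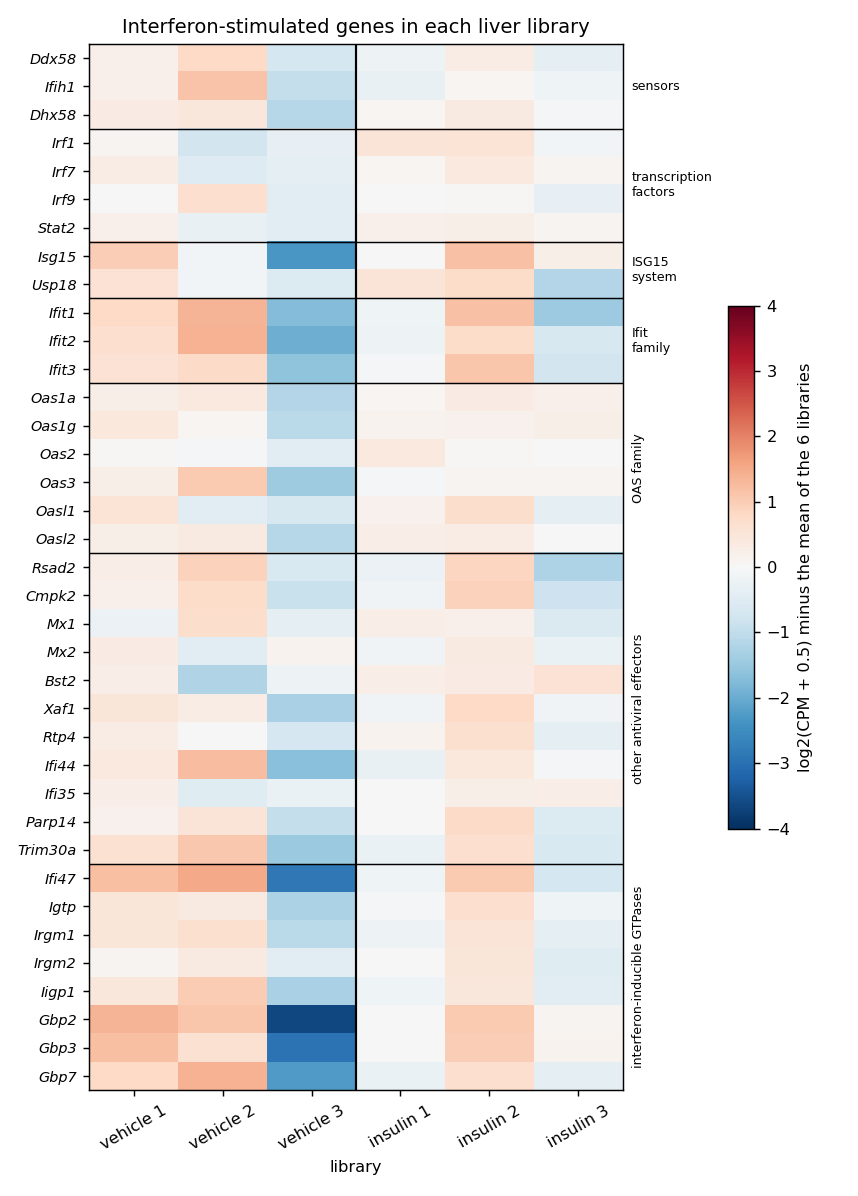
Expression of the 37 genes in each library, as log2(CPM + 0.5) minus the mean of the 6 libraries, with genes in rows grouped by role and the vehicle libraries to the left of the vertical line. Red is above and blue below the mean. IR vehicle replicate 3 is the lowest library for 28 of the 37 rows, and IR insulin replicate 2 is the highest insulin library for 32.

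Among the 37 genes, base composition moved with the levels. The deviation in IR vehicle replicate 2 had a Spearman's rho of −0.84 with transcript GC content, where it was −0.67 over all genes tested. In IR vehicle replicate 3 rho was 0.53 across the 37 genes and 0.15 over all genes tested. In the remaining libraries it ran from −0.44 to 0.69 across the 37 genes and from −0.16 to 0.32 over all genes tested. In IR insulin replicate 2 the sign differed, at −0.43 and 0.11. The points of each correlation share 1 library, and each deviation is set against the same other libraries. The 5 genes lowest in IR vehicle replicate 2, Irf1, Irf7, Mx2, Bst2 and Ifi35, had 51.1 to 55.4% GC. The 17 genes highest in it had 39.3 to 54.6%, with a median of 45.6%. With an offset for GC content, 22 genes were higher and 15 lower with insulin, and the median log2 fold change was 0.066.

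Genes with and without the ISRE core were set side by side. Of the 18 genes with the core, 9 were higher with insulin, and of the 11 with a window but no core, 7 were. Their median log2 fold changes were −0.078 and 0.24. IR vehicle replicate 3 was the lowest library for 15 of the 18 and for 8 of the 11. None of these splits was tested.

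The 4 widest differences between vehicle mice within the 37 genes were in the interferon-inducible GTPases Gbp2, Ifi47, Gbp3 and Gbp7. The family consists of proteins that assemble on the vacuoles of intracellular pathogens, and its genes are classical targets of interferon gamma. Gbp2 (chromosome 3, 142620602 to 142638008, plus strand, build 38), a guanylate-binding protein, had 314, 266 and 9.40 CPM in IR vehicle replicates 1, 2 and 3 and 121, 254 and 133 CPM in IR insulin replicates in the same order. Gbp3 (chromosome 3, 142560026 to 142573209, plus strand) had 103, 68.9 and 5.39 CPM in IR vehicle replicates 1, 2 and 3 and 44.9, 88.7 and 49.2 CPM in IR insulin. Gbp7 (chromosome 3, 142530342 to 142550149, plus strand) had 107, 161 and 12.4 CPM in IR vehicle replicates 1, 2 and 3 and 51.0, 96.7 and 47.9 CPM in IR insulin. In all 3 genes IR vehicle replicate 3 was far below the other 5 mice. Among those 5 the groups overlapped for Gbp3, while for Gbp2 and Gbp7 both vehicle mice lay above the insulin mice. The highest vehicle mouse exceeded IR vehicle replicate 3 by 33.4-fold for Gbp2, 19.2-fold for Gbp3 and 13.0-fold for Gbp7. The log2 fold changes of insulin over vehicle were −0.22 ± 0.94 (SE) for Gbp2, 0.042 ± 0.82 for Gbp3 and −0.52 ± 0.75 for Gbp7, with unadjusted p values in edgeR of 0.823, 0.96 and 0.508. With IR vehicle replicate 3 left out, Gbp7 was lower with insulin by the study's criteria (−1.04, unadjusted p 0.0251 in edgeR). Of all genes tested, 6.51% passed them in that fit, and Gbp2 stood at −0.78 (unadjusted p 0.0644 in edgeR).

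**Figure D5:**
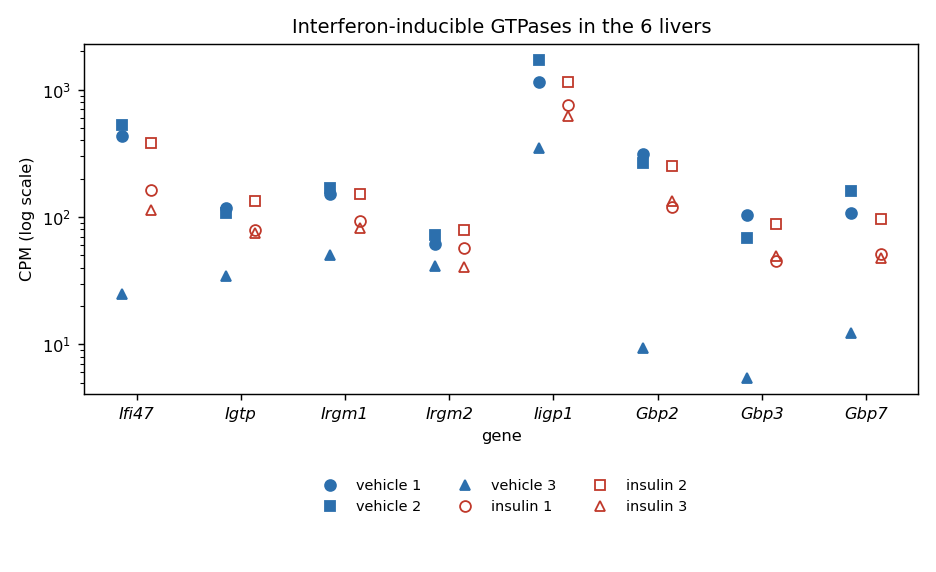
CPM of the 8 interferon-inducible GTPase genes on a log axis, with a point for each mouse, filled blue for IR vehicle and open red for IR insulin. IR vehicle replicate 3 lies lowest for 7 of the 8 genes, down to 5.39 CPM for Gbp3, and the other vehicle mice lie among or above the insulin mice.

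The immunity-related GTPases, which include the effectors Iigp1 and Ifi47 and the regulators Irgm1, Irgm2 and Igtp, were lowest in IR vehicle replicate 3 for all but Irgm2, whose lowest value, 40.6 CPM, was in IR insulin replicate 3. Ifi47 (chromosome 11, 49076587 to 49096974, plus strand) had 430.0, 529 and 25.0 CPM in IR vehicle replicates 1, 2 and 3 and 164, 379.8 and 113 CPM in IR insulin. Iigp1 (chromosome 18, 60376027 to 60392634, plus strand) had 1152, 1715 and 348 CPM in IR vehicle replicates 1, 2 and 3 and 757, 1151 and 622 CPM in IR insulin. Insulin values of both genes lay inside the vehicle range, and their log2 fold changes were −0.58 ± 0.91 and −0.35 ± 0.54 (SE). Irgm1 (chromosome 11, 48861968 to 48871683, minus strand), whose product keeps the effectors off the cell's own membranes, had 151, 168 and 50.6 CPM in IR vehicle replicates 1, 2 and 3 and 92.6, 153 and 82.2 CPM in IR insulin. Igtp and Irgm2 overlap on the same strand of chromosome 11, so reads can be shared between them. Igtp ranged over 34.5 to 133 CPM and Irgm2 over 40.6 to 79.4 CPM in the 6 livers. Their log2 fold changes, and that of Irgm1, were 0.14 ± 0.46, 0.019 ± 0.32 and −0.18 ± 0.46 (SE), with groups that overlapped. Of the 8 GTPase genes, 3 were higher and 5 lower with insulin, with a median of −0.20.

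The Ifit family encodes proteins that bind foreign RNA ends and block their translation. Ifit1 (chromosome 19, 34640871 to 34650009, plus strand) had 91.1, 132 and 15.1 CPM in IR vehicle replicates 1, 2 and 3 and 46.1, 118 and 18.8 CPM in IR insulin. Ifit2 (chromosome 19, 34550694 to 34576419, plus strand) had 22.9, 37.4 and 3.24 CPM in IR vehicle replicates 1, 2 and 3 and 12.2, 23.8 and 8.76 CPM in IR insulin. Ifit3 (chromosome 19, 34583531 to 34588731, plus strand) had 66.3, 76.4 and 14.2 CPM in IR vehicle replicates 1, 2 and 3 and 42.1, 96.9 and 26.3 CPM in IR insulin. In each gene the low mice were IR vehicle replicate 3 and IR insulin replicate 3, 1 from each group, and the groups overlapped. The log2 fold changes were −0.38 ± 0.82, −0.50 ± 0.75 and 0.078 ± 0.66 (SE), with unadjusted p values in edgeR from 0.52 to 0.909. Ifit3 has the close copy Ifit3b, and counts may be shared out between these paralogs.

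Isg15 encodes a ubiquitin-like modifier that is attached to other proteins, and Usp18 encodes the protease that removes it and dampens the type I receptor. Isg15 (chromosome 4, 156199424 to 156200818, minus strand) had 82.1, 38.4 and 7.82 CPM in IR vehicle replicates 1, 2 and 3 and 41.5, 92.4 and 48.5 CPM in IR insulin. Its vehicle values spanned 10.5-fold and those with insulin 2.23-fold, and the log2 fold change was 0.51 ± 0.71 (SE; unadjusted p 0.495 in edgeR). Leaving out IR vehicle replicate 3 gave 0.013. Usp18 (chromosome 6, 121245906 to 121270917, plus strand) had 32.4, 19.8 and 14.6 CPM in IR vehicle replicates 1, 2 and 3 and 30.8, 36.0 and 9.13 CPM in IR insulin. The lowest of its values was in IR insulin replicate 3, and its log2 fold change was 0.18 ± 0.51.

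The oligoadenylate synthetase family is named for enzymes that double-stranded RNA activates and that make the short adenylate chains that switch on RNase L. Oas1g, Oas3 and Oas2 were among the 4 least abundant genes here. All 6 were lowest in IR vehicle replicate 3. Oas1a (chromosome 5, 120896256 to 120907521, minus strand) had 7.61, 8.59 and 2.58 CPM in IR vehicle replicates 1, 2 and 3 and 6.80, 8.18 and 7.47 CPM in IR insulin. Oas3 (chromosome 5, 120753098 to 120777661, minus strand) had 3.17, 5.95 and 0.668 CPM in IR vehicle replicates 1, 2 and 3 and 2.43, 2.81 and 2.81 CPM in IR insulin. The insulin mice lay close together in both genes, inside a wider vehicle range. Oas1g, Oas2, Oasl1 and Oasl2 ranged over 0.906 to 3.49 CPM, 1.24 to 2.57 CPM, 13.8 to 35.4 CPM and 4.58 to 13.9 CPM. Of the 6 genes, 5 were higher with insulin and Oas3 was lower, with log2 fold changes from −0.27 to 0.36 and unadjusted p values in edgeR of at least 0.363. In the fit without IR vehicle replicate 3, Oas1a, Oas1g and Oasl2 changed sign, to −0.11, −0.098 and −0.094. Oas1a and Oas1g are close paralogs, and their counts may be shared out between them.

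The sensors of viral RNA are the helicases RIG-I, encoded by Ddx58, and MDA5, encoded by Ifih1, with the regulator LGP2, encoded by Dhx58. Ifih1 (chromosome 2, 62595798 to 62646255, minus strand) had 63.8, 122 and 28.1 CPM in IR vehicle replicates 1, 2 and 3 and 44.8, 58.0 and 49.1 CPM in IR insulin. Its insulin values lay between the extremes of the vehicle group, and the log2 fold change was −0.50 ± 0.47 (SE; unadjusted p 0.322 in edgeR). Leaving out IR vehicle replicate 3 gave −0.88 with an unadjusted p of 0.0253 (adjusted p 0.527, edgeR), and without IR vehicle replicate 2 it turned to 0.14. Ddx58 (chromosome 4, 40203773 to 40239828, minus strand) had 35.3, 53.0 and 18.5 CPM in IR vehicle replicates 1, 2 and 3 and 26.1, 37.2 and 23.3 CPM in IR insulin. Dhx58 ranged over 8.16 to 25.5 CPM. Both had their highest value in IR vehicle replicate 2 and their lowest in IR vehicle replicate 3, with log2 fold changes of −0.30 ± 0.39 and 0.11 ± 0.41 (SE).

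Among the role groups, the 4 transcription factors varied least between vehicle mice, with a median SD of 0.42 on the log2 scale. Irf1, which is induced by interferon gamma and drives a second wave of targets, had the smallest p of the 37 genes. Irf1 (chromosome 11, 53770014 to 53778374, plus strand) had 20.8, 11.5 and 15.4 CPM in IR vehicle replicates 1, 2 and 3 and 27.8, 28.5 and 17.8 CPM in IR insulin. The group means were 15.9 ± 4.64 and 24.7 ± 5.99 CPM (SD, n = 3), and IR insulin replicate 3 lay below IR vehicle replicate 1. Irf1 was higher with insulin by 0.63 ± 0.30 (SE, log2 scale; unadjusted p 0.0695, adjusted p 0.852 in edgeR). The unadjusted p in edgeR was 0.049 with no filter, 0.0317 without IR vehicle replicate 1 and 0.0408 without IR insulin replicate 3. Irf1 thus passed the study's criteria in these fits, where 3.22%, 9.81% and 0.875% of all genes tested did. The log2 fold change stayed above 0 in all 14 alternatives, from 0.44 to 0.88. Irf1 overlaps Gm17334 on the opposite strand.

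Stat2 and Irf9 encode parts of the ISRE-binding complex, and Irf7 encodes the factor that amplifies interferon alpha production. Stat2 (chromosome 10, 128270559 to 128292849, plus strand) had 55.1, 38.4 and 34.4 CPM in IR vehicle replicates 1, 2 and 3 and 54.4, 56.0 and 51.8 CPM in IR insulin. Irf7 (chromosome 7, 141262706 to 141266481, minus strand) had 81.8, 46.1 and 51.3 CPM in IR vehicle replicates 1, 2 and 3 and 69.9, 86.7 and 71.3 CPM in IR insulin. In both genes IR vehicle replicate 1 lay among the insulin mice and the other vehicle mice lay below them. Their log2 fold changes were 0.34 ± 0.24 and 0.35 ± 0.27 (SE; unadjusted p 0.194 and 0.242 in edgeR). Leaving out IR vehicle replicate 1 gave 0.57 and 0.64, with unadjusted p values of 0.0398 and 0.0336 in edgeR. With a GC offset Irf7 stood at 0.019 and Stat2 at 0.18. Irf9 (chromosome 14, 55603571 to 55610030, plus strand) ranged over 31.2 to 68.1 CPM with its highest value in IR vehicle replicate 2, and its log2 fold change was −0.25 ± 0.31. Irf7 overlaps Phrf1 on the opposite strand and Irf9 overlaps Rnf31 on its own, so their counts are uncertain.

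Bst2 was the single gene of the 37 whose groups did not overlap. It encodes tetherin, a membrane protein that holds budding virions at the cell surface. Bst2 (chromosome 8, 71534255 to 71537456, minus strand) had 125, 44.9 and 90.9 CPM in IR vehicle replicates 1, 2 and 3 and 125, 130.4 and 155 CPM in IR insulin. IR vehicle replicate 1 lay less than 1 CPM below the lowest insulin mouse. The means were 86.9 ± 40.1 and 137 ± 15.8 CPM (SD, n = 3), and the log2 fold change was 0.66 ± 0.36 (SE; unadjusted p 0.107, adjusted p 0.852 in edgeR). With IR vehicle replicate 1 left out it was 1.01 (unadjusted p 0.0274 in edgeR), and without IR vehicle replicate 2, its lowest library, 0.35 (unadjusted p 0.119). With a GC offset it was 0.41. Bst2 is also a marker of plasmacytoid dendritic cells, whose marker Siglech was at 0.26 to 0.81 CPM.

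Of the 11 other antiviral effectors, Bst2 included, 6 were lowest in IR vehicle replicate 3. Rsad2, which encodes viperin, and Cmpk2, which encodes a mitochondrial nucleotide kinase, are neighbours on chromosome 12. Rsad2 (chromosome 12, 26442746 to 26456452, minus strand) had 19.1, 30.2 and 10.1 CPM in IR vehicle replicates 1, 2 and 3 and 13.3, 28.7 and 6.41 CPM in IR insulin. Cmpk2 (chromosome 12, 26469204 to 26479837, plus strand) had 12.3, 17.9 and 5.53 CPM in IR vehicle replicates 1, 2 and 3 and 9.50, 20.6 and 5.72 CPM in IR insulin. In the insulin group both were highest in replicate 2 and lowest in replicate 3, with log2 fold changes of −0.29 ± 0.57 and 0.0059 ± 0.55 (SE). Ifi44 (chromosome 3, 151730922 to 151749960, minus strand) had 15.1, 27.5 and 3.24 CPM in IR vehicle replicates 1, 2 and 3 and 9.37, 15.4 and 11.1 CPM in IR insulin. It was lower with insulin by 0.35 ± 0.63 (SE, log2 scale), and without IR vehicle replicate 3 it stood at −0.83 with an unadjusted p of 0.0461 in edgeR. Trim30a, a ubiquitin ligase gene, ranged over 7.54 to 46.7 CPM, and Parp14, an ADP-ribosyltransferase gene, over 22.5 to 75.5 CPM. Xaf1, whose product promotes cell death, ranged over 4.10 to 19.4 CPM and Rtp4 over 11.3 to 28.7 CPM. These 4 genes were lowest in IR vehicle replicate 3, with log2 fold changes of −0.36 ± 0.62, 0.15 ± 0.45, 0.24 ± 0.50 and 0.26 ± 0.35.

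Mx1 and Mx2 encode dynamin-like GTPases that trap viral particles, and C57BL/6 mice are known to lack functional Mx1. Mx2 is annotated as a polymorphic pseudogene. Mx1 ranged over 1.11 to 3.44 CPM and Mx2 over 3.44 to 6.32 CPM, with log2 fold changes of −0.11 ± 0.50 and −0.040 ± 0.34 (SE). Ifi35 ranged over 15.8 to 27.3 CPM, with a log2 fold change of 0.32 ± 0.26 and its lowest value in IR vehicle replicate 2. In all 3 genes the groups overlapped.

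Upstream of these genes, the ligands were hardly detectable. A list of 102 further genes of the interferon pathway was read in the same fit, and 79 of them passed the filter on low counts. None of the 21 interferon genes on it passed. In all 6 libraries 19 of the 21 had 0 counts, Ifnb1 among them, which allows up to 0.13 to 0.184 CPM in a library (3 counts, counting error only). Ifng had 2 counts in IR insulin replicate 2 and 1 in IR insulin replicate 3, and Ifnk had 5 counts in IR insulin replicate 1. Ifnar1 had 39.3, 55.7 and 30.8 CPM in IR vehicle replicates 1, 2 and 3 and 40.3, 44.4 and 38.6 CPM in IR insulin, and Ifnar2 had 36.9, 34.7 and 44.9 CPM in IR vehicle replicates 1, 2 and 3 and 44.5, 38.7 and 40.0 CPM in IR insulin. The log2 fold changes of Ifnar1, Ifnar2, Ifngr1 and Ifngr2 were −0.030 ± 0.26, 0.081 ± 0.21, −0.11 ± 0.23 and 0.067 ± 0.32 (SE), and for each the groups overlapped.

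The kinase genes Jak1, Jak2 and Tyk2 had log2 fold changes of −0.35 ± 0.29, −0.19 ± 0.36 and 0.17 ± 0.26. Socs1, the feedback inhibitor of the JAK kinases, had 1.37, 0 and 0.238 CPM in IR vehicle replicates 1, 2 and 3 and 0.9, 1.52 and 0.692 CPM in IR insulin, with a log2 fold change of 0.93 ± 1.004. It had 0 counts in IR vehicle replicate 2, and the fit without IR vehicle replicate 1 gave 2.96 (unadjusted p 0.0259 in edgeR).

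Of the 79 genes, 0 had an adjusted p under 0.05 and 1 passed the study's criteria in edgeR, against 2.86% of all genes tested. It was Tlr7, the endosomal sensor of single-stranded RNA. Tlr7 had 1.90, 4.11 and 2.19 CPM in IR vehicle replicates 1, 2 and 3 and 1.31, 1.34 and 0.876 CPM in IR insulin, with no overlap. Tlr7 was lower with insulin, at −1.21 ± 0.44 (SE, log2 scale; unadjusted p 0.0243, adjusted p 0.852 in edgeR). With its highest library, IR vehicle replicate 2, left out, the estimate was −0.79 (unadjusted p 0.0645 in edgeR), and without IR insulin replicates 1, 2 and 3 the unadjusted p was 0.0554, 0.0516 and 0.0875. By limma voom it was 0.0742. The groups did not overlap for 6 of the 79, where 12.3% of all genes tested did not, and 51 of the 79 were higher and 28 lower with insulin. The list held 50 more interferon-stimulated genes, of which 31 were higher and 19 lower with insulin, with a median log2 fold change of 0.24. IR vehicle replicate 3 was the lowest library for 32 of these 50 (23.8% of all genes tested) and IR vehicle replicate 2 for 11 (37.4%). IR insulin replicate 2 was the highest insulin library for 33 of the 50 genes (30.5% of all genes tested). Among them Cxcl9, a chemokine gene induced by interferon gamma and named after its values were seen, had 844, 127 and 8.30 CPM in IR vehicle replicates 1, 2 and 3 and 150.0, 549.8 and 235 CPM in IR insulin. Its vehicle mice spanned 102-fold, and the insulin mice lay inside that range.

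Markers of other cells did not all follow the interferon-stimulated genes. The summed level of 5 neutrophil markers was 4.63 CPM in IR vehicle replicate 3, against 31.0 to 77.6 CPM elsewhere, and 4 of the 5 were lowest there. S100a9, for example, was at 1.91 CPM against 12.7 to 30.8 CPM. The 10 Kupffer cell and macrophage markers summed to 576 CPM in IR vehicle replicate 3 with a range of 299 to 750.1 CPM elsewhere. The 6 sinusoidal endothelial markers summed to 259 CPM there, above the 139.7 to 163 CPM of the others. The 9 T and NK cell markers summed to 2.81 to 4.59 CPM and the 4 B cell markers to 1.25 to 10.9 CPM over all 6 libraries, the highest B cell sum in IR vehicle replicate 2. The stellate cell and bile duct lists summed to 173 to 308 and 5.06 to 12.6 CPM, and the plasmacytoid dendritic cell list, which includes Bst2, to 69.4 to 166 CPM. The 5 erythroid markers summed to 626, 1587 and 413 CPM in IR vehicle replicates 1, 2 and 3 and to 343, 478 and 312 CPM in IR insulin. Within each group the mice stood in the same order as for the summed level of the 37 genes. Between the groups the order differed. IR vehicle replicate 3 was above IR insulin replicates 1 and 3 for the erythroid sum and below them for that of the 37 genes. The globin genes Hbb-bs, Hbb-bt, Hba-a1 and Hba-a2, 4 of these 5, passed the study's criteria as lower with insulin in edgeR. Of all genes tested 1.86% did so, and the adjusted p of the globin genes was 0.852. The count of 4 became 0 without IR vehicle replicate 2, IR insulin replicate 1 or IR insulin replicate 3, and 2 by voom. The globin genes were named after their values were seen, and as near-identical copies they can share reads. The part of any of these cells in the levels of the interferon-stimulated genes was not tested.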

How the data were processed

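Liver RNA libraries had been made by the authors with the NEBNext Ultra kit and run on a HiSeq instrument. Per the submitters' processing notes, reads were aligned with Bowtie2 2.2.3 to mouse build 38, a program that does not split a read over an intron, so reads across exon junctions may be lost. The deposited table holds whole-number read counts per gene, neither normalized nor pooled. The counting program and its use of strand are not given in the sources used here, so genes that overlap another gene (16 of the 37) or have close paralogs are uncertain.

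Groups and replicate numbers came from the sample titles, and each library is taken as 1 mouse. All 6 libraries were used, and no pair agreed within sampling noise (chi-square per degree of freedom of at least 27.1). IR insulin was compared with IR vehicle in edgeR 4.0.16 (R 4.3.3; glmQLFit and glmQLFTest, two-sided, TMM, no covariate) on genes kept by filterByExpr (minimum count 10, minimum total 15), with Benjamini-Hochberg adjustment over 13377 genes. The biological coefficient of variation was 0.357. The SE was derived from the F statistic. The study's own test was DESeq2, with criteria of 0.35 or more on the log2 scale in either direction and an unadjusted p under 0.05. Alternatives were RLE size factors, no filter, a mean of at least 50 counts, DESeq2 (1.42.0), limma voom with sample quality weights (3.58.1), a loess offset (span 0.5) on GC content of the longest GENCODE M21 transcript (13367 of 13377 genes), a block on the replicate number, that block with the GC offset, and leaving out each library. With 3 against 3 libraries no exact two-sided permutation p can go below 0.1, so that test was left out. The fits were tested on simulated data. Coordinates and lengths are from GENCODE M21 (build 38), which the aligned build matches, and promoter windows from RefSeq (GRCm38.p6). Deviations are log2(CPM + 0.5) in a library less the median over the other 5.

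The 37 genes, their roles, the list of 102 pathway genes and the marker lists were chosen with earlier results of these data known. All 37 are named, with 10 pathway genes (Jak1, Jak2, Tyk2, Ifnar1, Ifnar2, Ifngr1, Ifngr2, Socs1, Ifnb1, Ifng) and any other pathway gene past the study's criteria. Another pathway gene of that rule is not reported here.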

Additional observations from a re-analysis of the deposited data

How the results depend on the processing

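In all 14 alternatives 0 genes passed an adjusted p of 0.05, and the smallest adjusted p of the 37 genes ran from 0.506 to 0.9997. Without the filter on low counts, 1 of the 37 passed the study's criteria (Irf1), beside 3.22% of all genes tested. Leaving out 1 library gave 0 to 4, and every other alternative gave 0. Irf1, Irf7, Stat2 and Bst2 were higher without IR vehicle replicate 1, where 9.81% of all genes tested passed. Ifih1, Ifi44 and Gbp7 were lower without IR vehicle replicate 3, where 6.51% passed. Irf1 was higher without IR insulin replicate 3, where 0.875% passed. In the pathway list the count of 1 became 4 with no filter, 0 with a mean of at least 50 counts (which Tlr7 does not reach), 2 by DESeq2, 0 by voom and 4 with the replicate block, and ran from 0 to 16 when 1 library was left out (16 without IR vehicle replicate 1, 8 without IR vehicle replicate 3 and 0 in the other 4 fits). Over all genes the count of 383 became 742 with no filter and 213 by voom, and ran from 99 (without IR insulin replicate 1) to 1349 (without IR vehicle replicate 1), with 888 without IR vehicle replicate 3, 143 without IR insulin replicate 2 and 120 without IR insulin replicate 3. Calls split into 1.002% of genes higher and 1.86% lower, and into 0.695% and 2.83% with a GC offset. The higher and lower shares were 0.807% and 0.785% by voom, 1.52% and 0.882% with the replicate block and 0.541% and 0.505% without IR insulin replicate 2.

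Of 516 log2 fold changes of the 37 genes under the alternatives, 76 changed sign, and the causes were not tested. Irf1, Irf7, Stat2, Isg15, Oas2, Bst2 and Ifi35 kept their sign throughout. Signs changed with a GC offset for Dhx58 −0.26, Oasl1 −0.080, Ifi44 0.084, Trim30a 0.013, Iigp1 0.069, Jak2 0.033, Tyk2 −0.32, Ifnar2 −0.011 and Ifngr2 −0.00086, with the replicate block and a GC offset for Dhx58 −0.020, Usp18 −0.076, Ifit2 0.13, Oasl1 −0.060, Ifi44 0.30, Trim30a 0.14, Ifi47 0.16, Irgm1 0.065, Iigp1 0.18, Gbp2 0.67, Gbp7 0.23, Jak2 0.075, Tyk2 −0.27 and Ifnar2 −0.0065, with the replicate block alone for Oas3 0.092, Cmpk2 −0.041, Ifi44 0.014, Ifi47 0.029, Gbp2 0.56 and Ifnar1 0.010, by voom for Irf9 0.00036, Ifit2 0.033, Oas3 0.22, Mx1 0.40, Ifi44 0.13, Gbp2 0.24, Jak2 0.10, Tyk2 −0.063 and Ifnar1 0.13, with RLE for Cmpk2 −0.0044, by DESeq2 for Cmpk2 −0.0061 and with no filter for Ifnar1 0.0098. When 1 library was left out, the log2 fold changes that changed sign ran over these ranges: Ddx58 −0.61 to 0.11, Ifih1 −0.88 to 0.14, Dhx58 −0.26 to 0.38, Irf9 −0.48 to 0.11, Usp18 −0.16 to 0.59, Ifit1 −1.29 to 0.21, Ifit2 −1.01 to 0.20, Ifit3 −0.61 to 0.46, Oas1a −0.11 to 0.56, Oas1g −0.098 to 0.71, Oas3 −0.76 to 0.50, Oasl1 −0.019 to 0.77, Oasl2 −0.094 to 0.54, Rsad2 −1.003 to 0.16, Cmpk2 −0.64 to 0.43, Mx1 −0.35 to 0.42, Mx2 −0.28 to 0.14, Xaf1 −0.16 to 0.57, Rtp4 −0.035 to 0.49, Ifi44 −0.83 to 0.39, Parp14 −0.27 to 0.48, Trim30a −0.84 to 0.16, Igtp −0.24 to 0.43, Irgm1 −0.55 to 0.12, Irgm2 −0.25 to 0.24, Iigp1 −0.77 to 0.17, Gbp2 −0.78 to 0.30, Gbp3 −0.50 to 0.72, Gbp7 −1.04 to 0.13, Jak1 −0.52 to 0.0016, Jak2 −0.47 to 0.28, Ifnar1 −0.21 to 0.23, Ifngr2 −0.20 to 0.29.

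Over all genes tested, the replicate numbers did not pair the mice, and pairing within the 37 genes alone was not tested. The correlations of the deviations of same-numbered libraries from their group means were −0.048, 0.085 and 0.015, and with the block the median log2 fold change of the 37 genes was 0.18 (321 genes past the study's criteria, 0 of the 37).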
